A study of Mus musculus with 2 samples.

Results

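The open chromatin of the neonatal mouse heart was examined at 8 marker genes of macrophages and other leukocytes: Ptprc, Csf1r, Adgre1, Spi1, C1qa, Mrc1, Cx3cr1 and Lyz2. The members were all peaks that the deposited peak table assigned to these 8 genes by Ensembl gene ID, which gave 11 peaks of 83549, for 8 of 28944 genes with any peak. Accessibility was measured by ATAC-seq, in which the transposase Tn5 inserts adapters into open DNA. The control library came from the hearts of 7 pooled mice with floxed Wtap alleles (Wtapflox/flox). The other came from 6 pooled mice in which the gene was deleted in cardiomyocytes (Wtap-CKO), and all mice were 4 days old. Wtap encodes a subunit of the complex that methylates adenosine in RNA, and the promoter that drives its deletion is not given in the sources used here. By this design, the deletion was aimed at cardiomyocytes and not at the leukocytes of the hearts. Whether the leukocytes kept Wtap was not checked. Each pool gave 1 library, so no difference below has a replicate check and no test between the genotypes was run.

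The neonatal heart holds resident macrophages, which come largely from embryonic precursors, clear dying cells and take part in the growth and repair of the heart wall. Their identity depends on the transcription factor PU.1, encoded by Spi1, which opens and keeps open the enhancers of myeloid genes, and on signals through the receptor Csf1r, which macrophages need to survive. The other 6 genes encode the products by which leukocytes are usually recognised: surface molecules, a scavenging receptor, a chemokine receptor, a complement chain and an enzyme that digests bacterial walls.

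In all peaks together, 9816384 reads were counted in Wtap-CKO and 9835753 in the control. Counts were divided by these totals and multiplied by 1000000 (CPM). A ratio below is the log2 of the Wtap-CKO level over that of the control, with 0.5 CPM added to each. Each ratio is given with an exact conditional binomial 95% interval, taken from the counts and totals without the added 0.5 CPM. At weak peaks the added 0.5 CPM draws the ratio toward 0, so the interval is not centred on it. The interval covers counting error alone and leaves out variation among mice and preparations. The median ratio of all peaks was 0.00 on this scale and -0.21 in the authors' deposited table, which divides by larger library totals, a shift of the median by -0.22. By those totals, the peaks held 14.5% of the reads in Wtap-CKO and 16.8% in the control. Ratios scaled to reads in peaks therefore run higher than the authors' ratios. The gene taken to be Wtap, ENSMUSG00000060475, had 606 reads at its start in Wtap-CKO and 651 in the control. That gives a ratio of -0.10 (-0.26 to 0.06), but the deleted part of the gene is not given in the labels, so this peak does not check the genotype.

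Chromatin near these genes was sparsely open, and mostly away from their starts. Of the 8 genes, 1 (12.5%) had a peak within 1000 bp of an annotated start, against 16298 of all 28944 genes with a peak (56.3%). The gene with a promoter peak was Lyz2. Cx3cr1 had 2 peaks, Lyz2 had 3 and the other 6 genes 1 each, against a median of 2 over all genes. Of the 10 distal peaks, 4 lay between genes, 3 in introns, 1 in an exon and 1 in a 3′ UTR, and 1 was annotated by the authors as 2 to 3 kb from a start. The distal peaks of the 8 genes had a median of 5.37 CPM, near the 5.55 CPM of all distal peaks, and a median width of 299.5 bp against 312 bp. Together the 11 peaks held 688 Wtap-CKO reads and 571 control reads, 0.00701% and 0.00581% of the reads in peaks. The hearts were profiled whole, so the reads at these peaks can come from any cell of the heart, cardiomyocytes included. Which cells gave them was not tested. Fewer or more leukocytes in a pool, less or more open chromatin per leukocyte, and a difference in other cells cannot be told apart. A peak was assigned to the gene with the nearest start, which does not show that it acts on that gene.

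**Figure D1:**
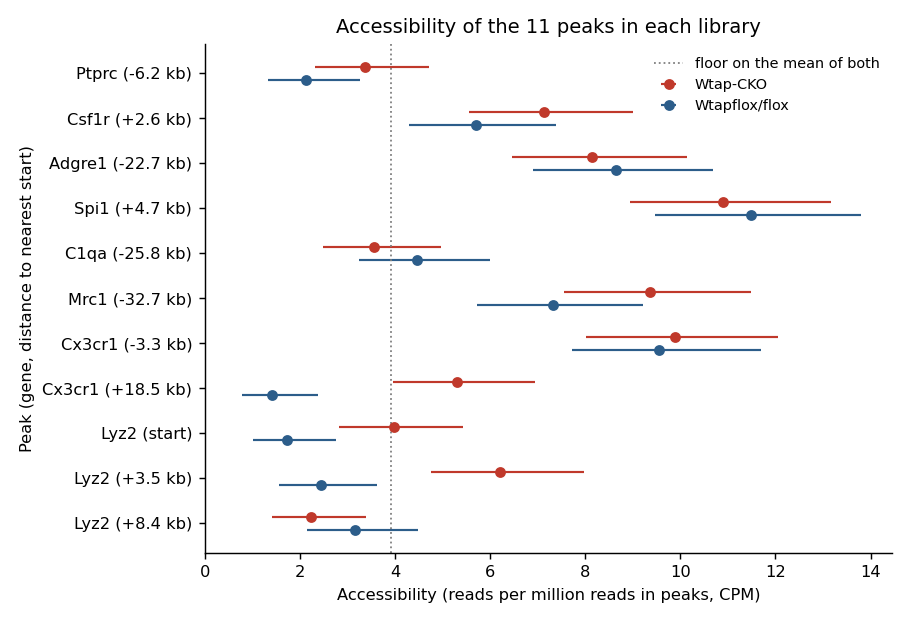
Accessibility of the 11 peaks in CPM, with exact Poisson 95% intervals of each count, in the single Wtap-CKO library (red) and the single Wtapflox/flox library (blue). The dotted line marks the floor of 3.92 CPM on the mean of both libraries; the Cx3cr1 peak in the 3′ UTR and the Lyz2 peaks at the start and in exon 3 are the 3 whose Poisson intervals do not overlap.

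The RefSeq promoter of Lyz2 is shown because Lyz2 is the only one of the 8 genes with a promoter peak. Those of Mrc1 and Ptprc are shown beside it as promoters of genes whose peaks all lay elsewhere. RefSeq promoters, from 250 bases before to 50 after the start, were given for 4 of the 8 genes, in 5 entries, and are of build GRCm38.p6, so their coordinates cannot be set beside those of the peaks. The sequence of Lyz2 (chr10:117282223-117282522, minus strand) has the 50 bases after the start in capitals. In those of Mrc1 (chr2:14229164-14229463, plus strand) and Ptprc (chr1:138175256-138175555, minus strand), capitals mark matches to GAGGAA or its reverse complement, a core bound by PU.1 and related factors.
Lyz2: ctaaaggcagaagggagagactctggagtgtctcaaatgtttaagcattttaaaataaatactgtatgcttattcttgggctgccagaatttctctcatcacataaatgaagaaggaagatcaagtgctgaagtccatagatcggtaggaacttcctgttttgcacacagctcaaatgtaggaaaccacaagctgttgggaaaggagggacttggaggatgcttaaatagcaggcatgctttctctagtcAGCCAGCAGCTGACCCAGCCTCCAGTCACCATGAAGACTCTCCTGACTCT
Mrc1: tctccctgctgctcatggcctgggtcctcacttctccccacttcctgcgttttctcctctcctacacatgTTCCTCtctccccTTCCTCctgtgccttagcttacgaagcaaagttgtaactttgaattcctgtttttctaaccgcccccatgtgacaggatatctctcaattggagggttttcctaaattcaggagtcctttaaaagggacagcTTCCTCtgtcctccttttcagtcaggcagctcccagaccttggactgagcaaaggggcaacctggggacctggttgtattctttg
Ptprc: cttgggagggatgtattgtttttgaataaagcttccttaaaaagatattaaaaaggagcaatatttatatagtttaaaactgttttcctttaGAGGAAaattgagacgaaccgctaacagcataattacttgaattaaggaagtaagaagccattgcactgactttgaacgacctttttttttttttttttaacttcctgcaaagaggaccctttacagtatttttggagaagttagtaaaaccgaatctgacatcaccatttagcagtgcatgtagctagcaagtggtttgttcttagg
GAGGAA was found 3 times in the Mrc1 promoter and 1 time in that of Ptprc, with 0 matches in the second Ptprc entry and in the promoters of Cx3cr1 and Lyz2. On either strand it occurs in 28.3% of all 32851 RefSeq promoter entries of this length. The AP-1 motif TGANTCA (7.81% of entries) and the C/EBP motif TTGCNNAA (10.8%) had 0 matches in the 5 entries. AGATAA, bound by GATA factors (11.2%), had 1 match, in the second Ptprc entry. No matches overlapped. A match describes letters in this window only, and the open chromatin of Mrc1 and Ptprc in these libraries lay outside it.

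Spi1 and Csf1r, the myeloid regulator and the growth factor receptor, each had 1 peak assigned to them. The Spi1 peak (ENSMUSG00000002111, chr2:90931779-90932119, GRCm39) lay in intron 2 of 3, 4654 bp after the nearest annotated start. The Wtap-CKO library gave 107 reads there and the control 113, 10.9 and 11.5 CPM, and a ratio of -0.07 (-0.47 to 0.32). It was the most open of the 11 peaks in both libraries, also per length (32.0 and 33.7 CPM per kb of peak), and the libraries did not differ beyond counting error. Between it and the next peak on the side of its start lay 30618 bp with no peak, so the stretch before the start, where a known upstream enhancer of Spi1 lies, had no peak in the table. The Csf1r peak (ENSMUSG00000024621, chr18:61241535-61241903) lay 2584 bp after a start. There were 70 reads in Wtap-CKO and 56 in the control, 7.13 and 5.69 CPM, with a ratio of 0.30 (-0.20 to 0.86). Csf1r is known for an enhancer inside the gene that is active in macrophages; whether this peak is that enhancer was not tested. The peak was called by the authors in Wtap-CKO only, although the counting interval spans 0. Csf1r was also open in intron 15 of 21, at a peak assigned to a neighbour. That peak had 73 Wtap-CKO reads and 36 control reads, and a ratio of 0.93 (0.43 to 1.64). It, too, was called in Wtap-CKO only.

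Ptprc, Adgre1 and Mrc1 encode surface molecules. Ptprc (CD45) is a phosphatase on the surface of leukocytes, Adgre1 (F4/80) an adhesion-type receptor of mouse macrophages, and Mrc1 (CD206) a mannose receptor of tissue macrophages. The Ptprc peak (ENSMUSG00000026395, chr1:138054674-138054873) lay in intron 2 of 29 and was the only one of the 3 below the signal floor described below. There were 33 reads in Wtap-CKO and 21 in the control, 3.36 and 2.14 CPM, and a ratio of 0.55 (-0.18 to 1.52). The Adgre1 peak (ENSMUSG00000004730, chr17:57642729-57643038) lay between genes at -22653 bp from the start, and 642 bp from a peak assigned to another gene. The Wtap-CKO library gave 80 reads there and the control 85, 8.15 and 8.64 CPM, and a ratio of -0.08 (-0.54 to 0.37). The Mrc1 peak (ENSMUSG00000026712, chr2:14300189-14300693) lay in intron 15 of 29, and at 505 bp it was the widest of the 11. There were 92 reads in Wtap-CKO and 72 in the control, 9.37 and 7.32 CPM, and a ratio of 0.34 (-0.10 to 0.82). For Ptprc and Mrc1 the start nearest to the peak was that of a short transcript (3384 and 3367 bp), so their distances of -6216 and -32679 bp are not distances to the main start of the gene. All 3 intervals span 0, so none of these peaks differed between the libraries beyond counting error. Mrc1 was also open in intron 11, at a peak assigned to a neighbour, with 71 reads against 40 and a ratio of 0.76 (0.25 to 1.43).

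C1qa, a chain of the complement component C1q that macrophages make in large amounts, had the weakest peak of those called in both libraries. It lay between genes (ENSMUSG00000036887, chr4:136651909-136652153) at -25795 bp from the start. There were 35 reads in Wtap-CKO and 44 in the control, 3.57 and 4.47 CPM, and a ratio of -0.29 (-1.01 to 0.35). Within 100 kb lay 4 peaks of other genes, with 226 and 287 reads and a ratio of -0.34 (-0.60 to -0.09). The interval of the C1qa peak spans 0, so it did not differ between the libraries beyond counting error, while that of the surrounding sum lies below 0.

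Cx3cr1, the receptor for the chemokine fractalkine on monocytes and macrophages, had 2 peaks that behaved differently. The peak before the gene (ENSMUSG00000052336, chr9:119902226-119902573), at -3281 bp from the start, had 97 Wtap-CKO reads and 94 control reads, 9.88 and 9.56 CPM, and a ratio of 0.05 (-0.38 to 0.47), which is -0.17 in the authors' deposited table. The peak in the 3′ UTR (chr9:119878575-119878846), 18503 bp after a start, had 52 Wtap-CKO reads and 14 control reads, 5.30 and 1.42 CPM. Its ratio of 1.59 (1.02 to 2.86) was the highest of the 11 peaks, a 3.01-fold difference after the added 0.5 CPM. The counting interval, which leaves out the added 0.5 CPM, lay wholly but only just above 2-fold. The peak was weak, at the 17.9th percentile of mean CPM among all peaks, and was called in Wtap-CKO only. Summed over both peaks, Cx3cr1 had 149 reads against 108 and a ratio of 0.45 (0.10 to 0.84). The intervals of the 2 peaks do not overlap. Most reads in the sum come from the stronger peak, but its excess in Wtap-CKO comes mainly from the weaker one.

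Lyz2 encodes lysozyme of macrophages and neutrophils, and its peaks at the start and inside the gene held more reads in the Wtap-CKO library. Both were called in Wtap-CKO only. The start peak lay below the signal floor described below, at the 11.2th percentile of mean CPM among all peaks. The peak over the start (ENSMUSG00000069516, chr10:117118040-117118241) ran from 15 bp before to 186 bp after it. The Wtap-CKO library gave 39 reads there and the control 17, 3.97 and 1.73 CPM, and a ratio of 1.01 (0.35 to 2.12). The peak in exon 3 of 4 (chr10:117114493-117114742), 3484 bp after the start, had 61 reads and 24, 6.21 and 2.44 CPM, and a ratio of 1.19 (0.65 to 2.095). The third peak (chr10:117109532-117109820), 8406 bp after the start and beyond the end of the gene, had 22 Wtap-CKO reads and 31 control reads, with a ratio of -0.41 (-1.35 to 0.34). It was the least open of the 11 in Wtap-CKO, and the only one called in Wtapflox/flox alone. The 2 distal peaks together had 83 reads against 55 and a ratio of 0.56 (0.09 to 1.12), and all 3 had 122 against 72 and a ratio of 0.73 (0.33 to 1.21). Lyz2 has a close relative, Lyz1, beside it in the RefSeq table. Reads from near-identical stretches of the pair could be placed in either gene, and the mapping was not checked.

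**Figure D2:**
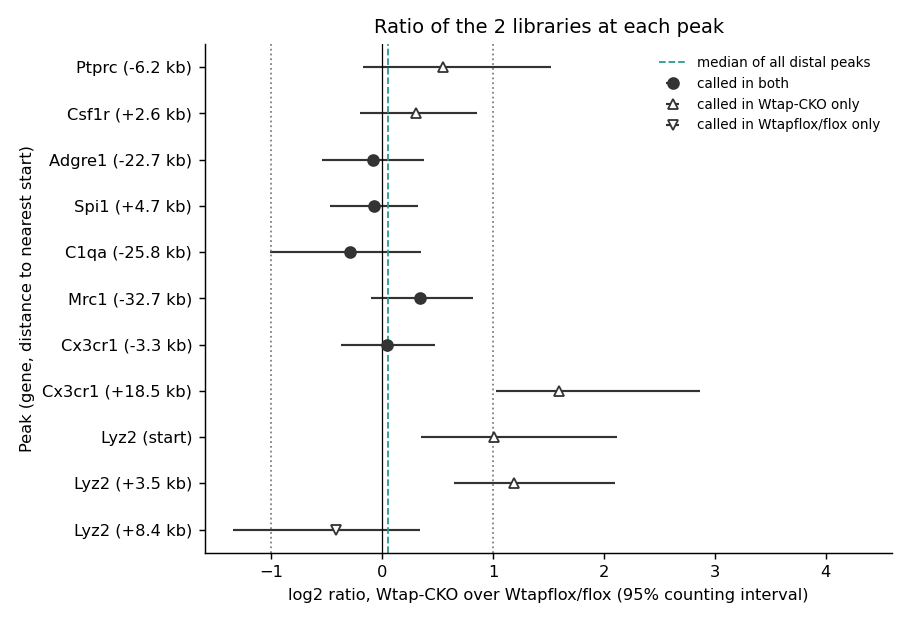
Log2 ratio of Wtap-CKO to control at each of the 11 peaks, with exact conditional binomial 95% intervals; filled circles were called by the authors in both libraries and open triangles in 1. The 3 peaks whose intervals exclude 0, of Cx3cr1 (3′ UTR) and Lyz2 (start and exon 3), were all called in Wtap-CKO only, and the dashed line is the median of all distal peaks (0.05). Dotted lines mark 2-fold.

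Per length of peak, the order of the levels was led by Spi1, Adgre1 and the upstream Cx3cr1 peak in both libraries. In Wtapflox/flox these had 33.7, 27.9 and 27.5 CPM per kb. C1qa (18.3), Csf1r (15.4) and Mrc1 (14.5) followed, then the third Lyz2 peak (10.9), Ptprc (10.7), Lyz2 exon 3 (9.76), the Lyz2 start (8.56) and the 3′ UTR of Cx3cr1 (5.23). The exact Poisson intervals of neighbours in this order overlapped in 10 of 10 pairs, in either library. Overlap does not show that a step lies within counting error, and the steps were not tested. In Wtap-CKO the third Lyz2 peak was lowest (7.76 CPM per kb), and Lyz2 exon 3 (24.9) came next after Spi1 (32.0), Cx3cr1 (28.4) and Adgre1 (26.3).

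Few of the peaks passed a 2-fold difference. To keep weak peaks from dominating such counts, a floor was set at 3.92 CPM, the 25th percentile of the mean of both libraries (about 38.5 reads). It left 7 of the 11 peaks, all distal. Of these 7, only the Lyz2 exon 3 peak was higher in Wtap-CKO by 2-fold or more, against 4.53% of all distal peaks over the floor, and 0 were 2-fold lower, against 1.75%. Among all 10 distal peaks, with no floor, 2 were higher (7.79% of all distal peaks) and 0 lower (3.69%), and the single promoter peak was higher (2.47% of all promoter peaks). The counting interval lay above 0 for 3 of the 11 peaks, against 21.2% of all peaks, and below 0 for 0, against 18.0%. The median ratio of the 10 distal peaks was 0.17, against 0.05 for all distal peaks, and their summed reads gave 0.23 (0.07 to 0.40). On the authors' RPM, which differs in library totals and in the added count, the median was -0.03, against -0.16 for all distal peaks, and the sum 0.01. The call of the Lyz2 exon 3 peak was lost with 2 CPM added in place of 0.5. Of the 11 ratios, 7 were above 0 and 4 below.

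The peaks whose intervals excluded 0 were among those that the authors' peak caller marked in 1 library. Of the 11 peaks, 5 were called in both libraries, 5 in Wtap-CKO only (17.6% of all peaks) and 1 in Wtapflox/flox only (21.2%). The 5 called in both, of Spi1, Adgre1, C1qa, Mrc1 and Cx3cr1, had 411 Wtap-CKO reads and 408 control reads and a summed ratio of 0.01 (-0.19 to 0.22), with single ratios from -0.29 to 0.34. The 5 called in Wtap-CKO only, of Ptprc, Csf1r, Cx3cr1 and Lyz2, had 255 reads against 132 and ratios from 0.30 to 1.59, with a median of 1.01. A peak called in 1 library tends to hold more reads there: over all 14710 peaks called in Wtap-CKO only, the median ratio was 0.78. Among such peaks below the floor, 35.1% were higher by 2-fold or more. Of the 3 member peaks of that kind, 2 passed 2-fold: the Cx3cr1 3′ UTR peak and the Lyz2 start. Distal peaks of 3 to 4 CPM had ratios from -0.91 to 1.25 between the 5th and 95th percentiles, and the Cx3cr1 peak (3.36 CPM) lay above that range. For those of 4 to 5 CPM the range ran from -0.86 to 1.15, and the Lyz2 exon 3 peak (4.33 CPM) lay just above it. The medians of these bins were 0.105 and 0.10, against -0.04 for distal peaks of 20 CPM or more. Only 3798 of the 9530 and 2126 of the 7774 peaks in these bins were called in Wtap-CKO only. Both member peaks were of that kind, so the ranges are not those of peaks selected alike.

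**Figure D3:**
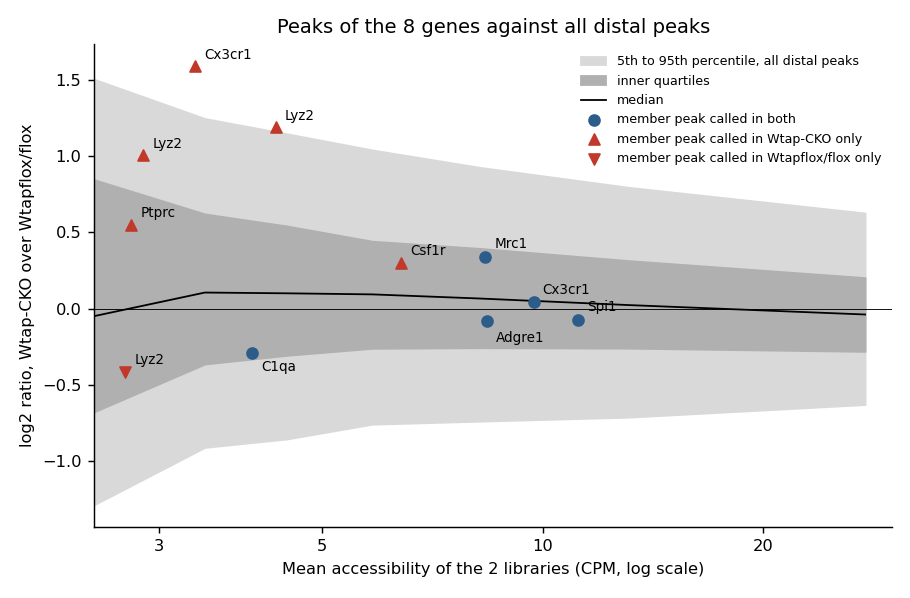
Log2 ratio of each member peak against its mean CPM (log axis), over the 5th to 95th percentiles (light), the inner quartiles (dark) and the median of all distal peaks in 7 bins of mean CPM; the Lyz2 peak at 2.85 CPM is the promoter peak. Circles are peaks called in both libraries and triangles those called in 1; the Cx3cr1 peak at 3.36 CPM and the Lyz2 peak at 4.33 CPM lie above the wide band, and the circles lie near 0.

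The surroundings of Lyz2 and Cx3cr1 were then described, since these genes held the peaks with intervals above 0; the choice was made after those values were seen. Within 100 kb of the Lyz2 start peak, 7 peaks assigned to other genes had 773 Wtap-CKO reads and 816 control reads, a ratio of -0.08 (-0.22 to 0.07). The nearest of them, 6696 bp away, lay in exon 3 of a gene annotated to lysozyme activity (ENSMUSG00000069515). It had 53 reads against 26, a ratio of 0.91 (0.33 to 1.77). This peak began 3528 bp after the start of its gene, near the 3484 bp of the Lyz2 exon 3 peak. Whether reads of near-identical stretches were shared between these 2 peaks was not checked. Of the 6 others, 1 was higher beyond counting error (78 reads against 37, 0.99) and 2 were lower (19 against 46, -1.09, and 243 against 324, -0.41). The interval of the region's sum thus spans 0, while single peaks in it moved either way. Around the 3′ UTR peak of Cx3cr1, 16 peaks of other genes had 3902 reads against 3503, a ratio of 0.16 (0.09 to 0.23). That sum is well below the 1.59 of the 3′ UTR peak, but rests mostly on stronger peaks. The nearest of the 16, 6075 bp away and below the floor, had 34 reads against 14, a ratio of 1.04 (0.35 to 2.30). This peak and some others of the 16 lie in intron 2 of a long Cx3cr1 transcript. The sum is therefore not wholly of chromatin outside the gene.

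**Figure D4:**
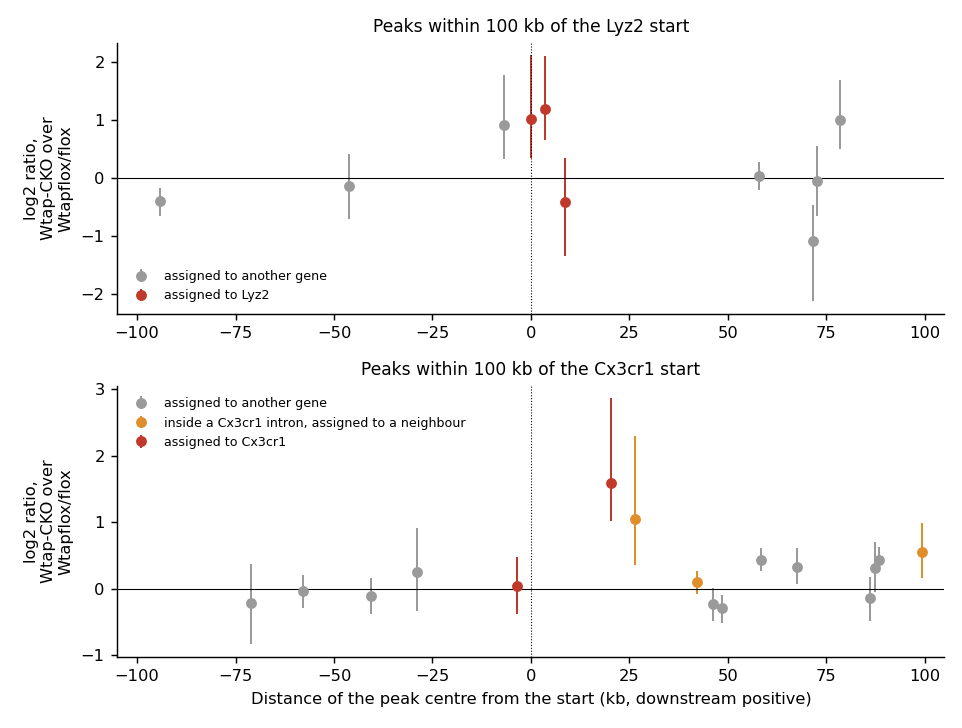
Log2 ratio, with 95% counting interval, of every peak whose centre lay within 100 kb of the start of Lyz2 (top) or Cx3cr1 (bottom), against the distance of the peak centre from the start in kb. Red marks peaks assigned to the gene, orange those inside a Cx3cr1 intron that the table assigns to a neighbour, and grey the rest. The Lyz2 peaks at 1.01 and 1.19 stand beside a grey one at 0.91, whose centre is at -6.865 kb.

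A wider set of leukocyte genes was taken from the Gene Ontology terms in the table, since its IDs are not paired with symbols there. Terms for macrophages, phagocytosis, complement, leukocyte movement, myeloid differentiation and the T and B cell receptors gave 149 genes after C1qa, the only one of the 8 they held, was taken out. Of the 262 distal peaks over the floor near them, 10 were higher in Wtap-CKO by 2-fold or more and 8 lower (background 4.53% and 1.75%), and of 145 promoter peaks 4 were higher (background 1.38%) and 0 lower (0.841%). Their distal median was 0.05 and their promoter median -0.03, against 0.05 and -0.06 over all peaks. The reads of these genes made up 0.684% of reads in peaks in Wtap-CKO and 0.691% in Wtapflox/flox. Summed per gene over all peaks, 140 were over the floor, and the counting interval lay above 0 for 32 (22.9%) and below 0 for 25 (17.9%), against 20.8% and 19.5% of all genes. The highest were ENSMUSG00000020310 on chromosome 10, annotated to leukocyte migration (70 reads against 31, 1.06), and ENSMUSG00000019278 on chromosome 8, annotated to neutrophil chemotaxis (354 against 178, 0.98). The lowest were ENSMUSG00000037731 on chromosome 4, annotated to T cell receptor signalling (30 against 54, -0.75), and ENSMUSG00000037446 on chromosome 17, annotated to phagocytosis (128 against 192, -0.56).

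The macrophage terms (18 genes) had a distal median of -0.04, with 0 of 25 distal peaks over the floor higher and 2 lower. Phagocytosis genes (36) had 0.09, with 0 of 50 past 2-fold either way, and genes of leukocyte movement (36) 0.05, with 4 of 85 higher and 4 lower. Myeloid differentiation genes (21) had 0.29, with 2 of 20 higher, and complement genes (7) 0.32, with 1 of 6 higher. T cell receptor genes (29) had -0.06, with 2 of 65 higher and 1 lower, and B cell receptor genes (13) 0.06, with 2 of 57 higher and 2 lower. Lists for other cells of the heart lay in the same range. The distal median was -0.03 for 35 sarcomere genes, 0.17 for 30 collagen fibril genes, 0.09 for 111 angiogenesis genes and 0.26 for 23 erythrocyte genes. In that order, 4 of 115, 5 of 84, 17 of 301 and 2 of 13 distal peaks over the floor were higher by 2-fold or more. Lower by 2-fold were 0, 0, 6 and 0. Over all distal peaks over the floor, 4.53% were higher and 1.75% lower. The part of these other cells in the member peaks was not tested. All 35 sarcomere genes had a promoter peak, as did 83.3% of the macrophage terms' genes and 77.2% of all 149. The shares for lists of terms cannot be set directly beside the 1 in 8 of the marker genes, since 84.0% of genes with terms given had one. Terms were not used here for 4 of the 8 genes.

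**Figure D5:**
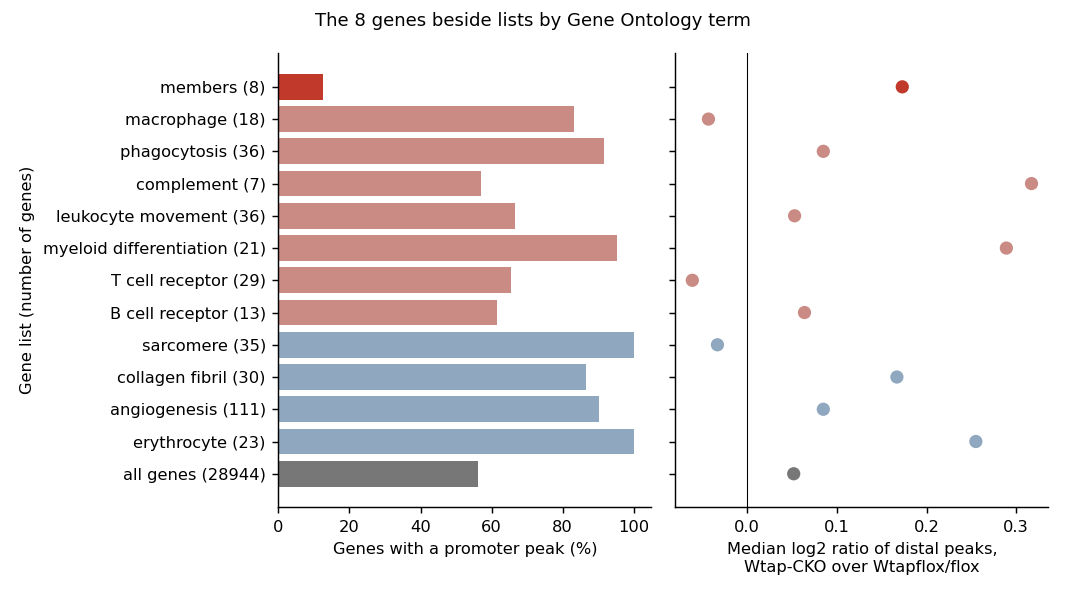
Left, the percentage of genes with a peak within 1000 bp of a start, in the 8 genes, in 7 leukocyte lists and 4 lists for other cells by Gene Ontology term, and in all genes with a peak; right, the median log2 ratio of their distal peaks. The 8 genes stand at 12.5% on the left and 0.17 on the right, where the lists run from -0.06 to 0.32.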

How the data were processed

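ATAC-seq was run on 1 pooled heart library per genotype, grouped by the genotype label. The submitters' processing notes list HOMER 4.11, MACS2 2.1.0, ChIPseeker, BWA 0.7.12 and fastp 0.20.0, with build GRCm39 and no roles; the removal of duplicates and mitochondrial reads is not given in the sources used here, and unremoved duplicates would make the counting intervals too narrow. A single table of merged peaks was deposited by the authors, with raw read counts per peak and library. The RPM deposited by the authors is the count plus 1 read times 1 constant per library (0.01475 for Wtap-CKO, 0.0171 for Wtapflox/flox), as worked out from the values. The fold enrichment ratio in the deposited table was not used. The log2 fold change deposited by the authors is the log2 ratio of RPM, with no centring. Coordinates are read as counted from 1.

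Promoter peaks lie within 1000 bp of an annotated start and all others are distal. Ratios, intervals and the floor were computed in Python 3.11.15 with numpy 2.4.6, pandas 2.3.3 and scipy 1.17.1, and tested on simulated data. The 8 genes, their symbols, which are paired with the IDs in the rule that chose them, the lists and the named peaks (all 11, and the extremes of the wider list) were chosen with earlier results of these data known. Of 7 genes with a term for the complex of Wtap, the 1 on chromosome 17 was taken to be Wtap. Symbol lists of cell type markers were planned and are not analysed here, since IDs could not be paired with symbols. Genes alike in pattern were not sought, as 2 libraries give 1 ratio per gene. Alternatives were other pseudocounts, scalings, centrings, floors, folds and definitions of promoter and distal peaks.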

Additional observations from a re-analysis of the deposited data

Results flagged for a closer look

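Attention was drawn by 4 peaks that lie inside a member gene by the authors' feature annotation but are assigned to a neighbour. The counts and sums over the 11 peaks above do not use them, though those in Cx3cr1 were counted among its surroundings. Each held more reads in Wtap-CKO than in the control library beyond counting error. In Csf1r, intron 15 of 21 (chr18:61260501-61260834) had 73 reads against 36 and a log2 ratio of 0.93 (0.43 to 1.64). In Mrc1, intron 11 of 29 (chr2:14285345-14285735) had 71 against 40 and a ratio of 0.76 (0.25 to 1.43). Intron 2 of a long Cx3cr1 transcript that runs across neighbouring genes held the other two. One (chr9:119872300-119872499) had 34 reads against 14 and a ratio of 1.04 (0.35 to 2.30), below the floor, and the other (chr9:119799298-119799754) had 126 against 85 and a ratio of 0.55 (0.16 to 0.99). A further peak in that intron, with 563 reads against 528, had a ratio of 0.10 (-0.08 to 0.27). Over all peaks the interval lay above 0 for 21.2%. The Csf1r peak and the Cx3cr1 peak with 34 reads were called in Wtap-CKO only, the others in both libraries. A peak called in 1 library tends to hold more reads there, and all peaks called in Wtap-CKO only had a median ratio of 0.78. With these 5 peaks added, the summed distal ratio was 0.27 (0.16 to 0.38), an alternative chosen after seeing the data.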

How the results depend on the processing

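With 1 library per genotype no replicate could be left out. No paired analysis was possible because each genotype has 1 library. The summed distal ratio of 0.23 stayed above 0 in all 11 alternatives but was 0.011 with the authors' RPM, 0.013 with only peaks called in both libraries and 0.663 without the strongest distal peak of each gene, which leaves Cx3cr1 and Lyz2. The distal median of 0.17 was -0.032, -0.073 and 0.589 in the same alternatives, so its sign depended on the scaling and on which peaks counted. The count of peaks at least 2-fold higher (1) was 0 with a pseudocount of 2, a floor at the median, a 4-fold rule, only peaks called in both, or without Lyz2 (added after seeing the data), and 3 with no floor. The count of 2-fold lower peaks was 0 in all 10 alternatives. The Lyz2 promoter ratio ran from 0.68 to 1.16. Replacing promoter peaks by the peak nearest each start gave a summed ratio of 0.14. The Lyz2 distal ratio was -0.41 without the exon 3 peak. The causes were not tested, except that leaving out peaks, genes or weak signal leaves fewer peaks to count. No promoter peak of the 8 genes was called in both libraries, so that alternative gave no promoter value. Counts of 14 to 113 reads per peak and library limit what could be seen.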

Other observations

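Spi1 lies next to a gene annotated to the sarcomere and cardiac muscle contraction (ENSMUSG00000002100), and in the RefSeq table the next protein-coding gene is Mybpc3, a cardiac myosin-binding protein gene. The 2 promoter peaks of that neighbour had 372 reads in Wtap-CKO against 456 and 346 against 485, log2 ratios of -0.29 (-0.49 to -0.09) and -0.48 (-0.69 to -0.28). The peak between it and the Spi1 peak had 244 against 305 and a ratio of -0.31 (-0.57 to -0.07), whereas the Spi1 intron peak, 13282 bp away from it, had -0.07 (-0.47 to 0.32). The interval of the Spi1 peak holds 0 and the values of -0.29 and -0.31, and its lower end lies just above -0.48.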
